A study of Mus musculus and Mus musculus
Rattus norvegicus with 30 samples.

Results

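The 10 genes described here belong to glucose breakdown and to the transcriptional response to low oxygen: Hk2, Pfkl, Aldoa, Ldha, Pdk1, Slc2a1, Slc2a3, Bnip3, Egln3 and Ndrg1. They were taken by symbol from the RNA-seq count tables of mouse embryonic stem cells (mESCs, 10 of 19919 genes) and of mouse-rat allodiploid RMES cells, where reads had been assigned to the mouse allele (10 of 34923 genes) or the rat allele (10 of 25245 genes). Ndrg1 was selected on its measured level, which differed between mESCs that overexpressed mouse Cdx2 and those that overexpressed rat Cdx2. That difference is therefore a description here and carries no test, and the values of Ndrg1 in those libraries support nothing further. All 10 genes passed the filter on low counts in every table, and no gene was added to or dropped from the set.

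Glucose enters cells through transporters of the Slc2a family and is cut to pyruvate by a chain of enzymes, among them hexokinase, phosphofructokinase and aldolase. Pyruvate is then turned into lactate by lactate dehydrogenase or burnt in mitochondria, and pyruvate dehydrogenase kinases close the mitochondrial route. When oxygen is low, prolyl hydroxylases of the Egln family stop marking the transcription factor Hif1a for destruction, and Hif1a then raises many glycolytic genes together with genes such as Bnip3, Egln3 and Ndrg1. Pluripotent stem cells are known for high glycolysis, and Cdx2 is the homeobox factor that directs early embryonic cells towards trophoblast.

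The mESC RNA-seq comprised 10 groups of 2 libraries: WT, mCdx2-OE (mouse Cdx2 overexpressed), rCdx2-OE (rat Cdx2 overexpressed) and 7 mutants of rCdx2, changed at 1 or more of the 3 residues of the DNA-binding domain that differ between mouse and rat Cdx2 (R1, R2, R3, R12, R13, R23 and R123, named by the changes they hold). The Flag-tagged constructs were delivered by lentivirus and switched on by doxycycline (DOX) at 200 ng/ml for 48 h in mCdx2-OE and rCdx2-OE cells, and for a time not given in the sources used here in the mutants. RMES cells, a fusion of mouse and rat haploid embryonic stem cells, gave 2 WT libraries, 1 mCdx2-OE library and 1 rCdx2-OE library, each read out on both alleles. ATAC-seq (1 WT and 1 mCdx2-OE mESC library) and Cdx2 ChIP-seq (mCdx2-OE and rCdx2-OE, 1 library each in mESCs and in RMES cells) completed the 30 samples. Nothing in the labels says that the 2 libraries of a group came from separate cultures, so p values measure only the spread between these libraries. No library is labelled as WT given DOX or an empty vector. Effects of DOX and of transduction therefore cannot be told apart from those of Cdx2.

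The WT mESC libraries held 74960057 and 94686029 counts and the induced ones 12698443 to 24315929, while RMES libraries held 36166038 to 41418817 on the mouse allele and 29453412 to 35249756 on the rat allele. Levels are given as CPM, counts brought to a common library size with TMM factors, which were computed within each table. Cdx2 itself was at 1.36 and 1.21 CPM in WT mESCs, at 97.9 and 127 in mCdx2-OE, at 70.4 and 67.0 in rCdx2-OE and between 37.2 and 147 in the mutants. These counts do not separate the transgene from the endogenous gene, and reads of rat Cdx2 constructs were aligned to the mouse genome. In RMES cells the libraries labelled WT were not free of Cdx2: the mouse allele stood at 129 and 127 CPM and the rat allele at 453 and 439.6. In the mCdx2-OE library the rat Cdx2 allele was at 47.2 CPM, and in the rCdx2-OE library the mouse allele was at 4.45. Summed CPM of 5 fibroblast (feeder) markers was 30.1 to 30.2 in WT mESCs, 3.71 to 4.01 in mCdx2-OE, 3.59 to 4.35 in rCdx2-OE (Dcn at 0 in both groups) and 1.28 to 3.87 in the mutants. The 6 pluripotency markers summed to 3380 to 3398 CPM in WT, 2385 to 2405 in mCdx2-OE and 2167 to 2192 in rCdx2-OE. In the mutants they summed to 2662 to 3436. At an adjusted p under 0.05 in edgeR's test against WT, 4 were lower and 2 higher in mCdx2-OE and in rCdx2-OE. The shares over all genes were 35.8% and 34.0% in mCdx2-OE, and 36.2% and 34.4% in rCdx2-OE. For the mean of the mutants 2 were lower and 3 higher (39.0% and 34.9% of all genes). The trophoblast markers, Cdx2 included, summed to 156 to 157 CPM in WT, 674 to 676 in mCdx2-OE and 746 to 818 in rCdx2-OE. These sums cover 6 of 7 markers, with Elf5 below the filter on low counts. At the same threshold 4 of the 6 were higher and 1 lower in mCdx2-OE and in rCdx2-OE. Apart from the pluripotency sum of the mutants, whose range held that of WT, these sums moved with the comparisons against WT below. The part of the sums in the results was not tested. Fewer cells of a type and less RNA per cell cannot be told apart in bulk libraries.

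Promoter sequence is shown for 5 of the genes, since the letters ACGTG and GCGTG are the core of the hypoxia response element to which Hif1a binds. RefSeq promoter entries (mouse build GRCm38.p6, the same coordinates as mm10) were at hand for 8 of the 10 genes, with none for Slc2a3 and Ndrg1. All 8 held at least 1 match in the 250 bases before a start site, on either strand, in 10 of their 12 entries, against 38.6% of 32851 promoters. Ldha and Bnip3 had 5 matches each, Hk2 2, and Pdk1 and Egln3 1 each, with overlapping matches counted separately. A match describes letters in a window and not a bound site. In the 5 sequences below, read 5′ to 3′ on the strand of the gene, capitals mark the matches. The windows are chr7:46845554-46845803 for Ldha (plus strand, within the annotated gene but in no exon), chr7:138909507-138909756 for Bnip3 (minus strand, ending just inside the first annotated exon), chr6:82774455-82774704 for Hk2 (minus strand, upstream), chr2:71872974-71873223 for Pdk1 (plus strand, upstream) and chr12:54203875-54204124 for Egln3 (minus strand, upstream).
Ldha: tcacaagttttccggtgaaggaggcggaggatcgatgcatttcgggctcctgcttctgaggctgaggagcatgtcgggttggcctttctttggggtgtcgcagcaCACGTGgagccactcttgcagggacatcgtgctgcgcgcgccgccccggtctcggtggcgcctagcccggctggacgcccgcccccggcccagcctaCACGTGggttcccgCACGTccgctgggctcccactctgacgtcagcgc
Bnip3: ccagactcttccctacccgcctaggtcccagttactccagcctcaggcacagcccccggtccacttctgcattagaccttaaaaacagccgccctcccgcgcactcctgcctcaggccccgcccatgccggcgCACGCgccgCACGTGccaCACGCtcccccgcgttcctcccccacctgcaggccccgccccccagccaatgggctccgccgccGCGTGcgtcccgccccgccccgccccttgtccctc
Hk2: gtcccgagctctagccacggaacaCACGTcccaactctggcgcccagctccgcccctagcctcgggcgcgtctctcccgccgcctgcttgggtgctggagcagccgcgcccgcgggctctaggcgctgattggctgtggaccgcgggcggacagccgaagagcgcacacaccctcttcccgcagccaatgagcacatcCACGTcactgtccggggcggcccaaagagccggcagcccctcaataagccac
Pdk1: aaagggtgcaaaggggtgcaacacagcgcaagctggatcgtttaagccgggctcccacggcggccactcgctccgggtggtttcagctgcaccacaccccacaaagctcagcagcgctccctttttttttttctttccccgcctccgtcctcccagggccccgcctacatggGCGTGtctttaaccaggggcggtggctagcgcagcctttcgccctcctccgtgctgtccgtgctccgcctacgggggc
Egln3: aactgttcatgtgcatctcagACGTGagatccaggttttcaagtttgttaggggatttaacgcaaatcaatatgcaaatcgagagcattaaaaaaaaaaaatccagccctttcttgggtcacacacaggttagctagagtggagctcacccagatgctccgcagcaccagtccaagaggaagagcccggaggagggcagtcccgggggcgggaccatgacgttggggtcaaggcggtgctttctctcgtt

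The positions of the genes are given in mm10. The transporters are Slc2a1 (ENSMUSG00000028645, chr4:119108711-119137983, plus strand) and Slc2a3 (ENSMUSG00000003153, chr6:122727809-122801640, minus strand). The enzymes of glycolysis are Hk2 (ENSMUSG00000000628, chr6:82725025-82774454, minus strand), Pfkl (ENSMUSG00000020277, chr10:77986947-78010083, minus strand), Aldoa (ENSMUSG00000030695, chr7:126795234-126800751, minus strand) and Ldha (ENSMUSG00000063229, chr7:46841475-46855627, plus strand), and the mitochondrial kinase is Pdk1 (ENSMUSG00000006494, chr2:71873224-71903858, plus strand). The hypoxia response genes are Bnip3 (ENSMUSG00000078566, chr7:138890836-138909519, minus strand), Egln3 (ENSMUSG00000035105, chr12:54178981-54203860, minus strand) and Ndrg1 (ENSMUSG00000005125, chr15:66929318-66969640, minus strand).

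In undisturbed mESCs the 2 transporters and the 4 glycolytic enzymes each stood above the 3 hypoxia response genes, with Pfkl closest to them. Per kilobase of transcript as counted, WT levels were 333 CPM for Aldoa, 224 for Ldha, 138 for Slc2a3, 70.0 for Slc2a1, 56.3 for Hk2, 25.8 for Pfkl, 18.5 for Bnip3, 15.7 for Pdk1, 7.65 for Egln3 and 3.72 for Ndrg1. Aldoa and Ldha have pseudogene copies elsewhere in the genome, which the annotation used for counting left out, and the effect of such copies on their counts was not measured.

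After 48 h of DOX in mCdx2-OE and rCdx2-OE cells, the transporter genes rose while phosphofructokinase, lactate dehydrogenase and pyruvate dehydrogenase kinase 1 fell. A gene was called when the adjusted p value of edgeR's quasi-likelihood test was under 0.05 and the level changed more than 2-fold. In mCdx2-OE 6 of the 10 genes were called (33.4% of 16000 genes tested were), 3 higher (background 18.4%) and 3 lower (background 15.0%). In rCdx2-OE the number was also 6 (background 34.5%), again 3 higher (19.0%) and 3 lower (15.4%), and the same 6 genes were called in both, Ndrg1 among them as a description only. Without the fold requirement 8 genes passed in mCdx2-OE (background 69.7%), 3 higher (34.0%) and 5 lower (35.8%), and 9 in rCdx2-OE (background 70.6%), 3 higher (34.4%) and 6 lower (36.2%). The median log2 fold change of the 10 genes was −0.28 in mCdx2-OE, against −0.03 over all genes, and −0.38 in rCdx2-OE, against −0.04. Both comparisons used the same 2 WT libraries. Same-numbered libraries of mCdx2-OE and rCdx2-OE also deviated together (Pearson r 0.76 over 11898 genes), so the 2 comparisons are not independent.

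Slc2a1 encodes the widely expressed glucose transporter Glut1. Its level was 245 and 246 CPM in the 2 WT libraries, 515 and 533 in mCdx2-OE and 610.3 and 648 in rCdx2-OE, so that neither group overlapped WT. The log2 fold change was 1.09 ± 0.09 (SE) in mCdx2-OE (adjusted p = 1.38e-08) and 1.36 ± 0.09 in rCdx2-OE (adjusted p = 1.05e-09). Slc2a3 encodes the high-affinity transporter Glut3 of neurons, early embryos and placenta. It stood at 1004 and 986 CPM in WT, at 2278 and 2229.8 in mCdx2-OE and at 2070.4 and 2061 in rCdx2-OE, again without overlap. Its log2 fold change was 1.18 ± 0.06 in mCdx2-OE (adjusted p = 8.61e-11) and 1.05 ± 0.06 in rCdx2-OE (adjusted p = 2.87e-10).

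Hk2, the inducible hexokinase that traps glucose as glucose 6-phosphate, moved little: 338 and 334 CPM in WT, 306 and 277 in mCdx2-OE and 283 and 249 in rCdx2-OE. Its log2 fold change of −0.20 ± 0.09 in mCdx2-OE missed the threshold (adjusted p = 0.0514), and that of −0.34 ± 0.09 in rCdx2-OE passed it without reaching 2-fold (adjusted p = 0.00290). Pfkl, the liver-type phosphofructokinase that catalyses the committed step, was at 172 CPM in both WT libraries. It fell to 86.3 and 67.5 in mCdx2-OE and to 79.1 and 70.2 in rCdx2-OE, with log2 fold changes of −1.16 ± 0.10 and −1.20 ± 0.10 (adjusted p = 2.34e-08 and 1.42e-08). With scaling by library totals alone, the mCdx2-OE fold change of Pfkl was −0.97 and that of Ldha −0.98, each just short of 2-fold. Aldoa, the aldolase that splits fructose 1,6-bisphosphate, was at 1203 and 1227 CPM in WT, 1107 and 785 in mCdx2-OE and 1045 and 776 in rCdx2-OE. The 2 libraries of each induced group stood far apart, with replicate 1 the higher in both, and its log2 fold changes were −0.36 ± 0.15 and −0.42 ± 0.15 (adjusted p = 0.0446 and 0.0225).

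Ldha, the dehydrogenase subunit that favours lactate production, stood at 733 and 749 CPM in WT, 317 and 344 in mCdx2-OE and 309 and 319 in rCdx2-OE. The groups did not overlap, and the log2 fold changes were −1.16 ± 0.08 and −1.24 ± 0.08 (adjusted p = 3.11e-09 and 1.37e-09). Pdk1, which phosphorylates and shuts pyruvate dehydrogenase, had the largest change of the 10 genes in both comparisons. It dropped from 118 and 127 CPM in WT to 15.3 and 20.5 in mCdx2-OE and to 15.8 and 16.2 in rCdx2-OE. These are 0.145 and 0.131 of the WT level (log2 fold changes −2.78 ± 0.12 and −2.93 ± 0.13, adjusted p = 1.46e-11 and 8.51e-12). Ranked by fold change among all genes tested, Pdk1 stood at percentile 3.7 in mCdx2-OE and 3.4 in rCdx2-OE.

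The 3 hypoxia response genes did not move together. Bnip3, a mitochondrial protein that promotes mitophagy, was at 42.6 and 41.1 CPM in WT, 34.4 and 44.4 in mCdx2-OE and 36.4 and 41.2 in rCdx2-OE, with overlapping libraries. Its log2 fold changes were −0.09 ± 0.13 (adjusted p = 0.525) and −0.11 ± 0.13 (adjusted p = 0.426), and both turned positive under scaling by library totals alone. Egln3, the prolyl hydroxylase whose own gene is a Hif1a target, fell from 21.2 and 19.5 CPM to 11.9 and 13.6 in mCdx2-OE and to 10.8 and 11.8 in rCdx2-OE. The decrease was under 2-fold, with log2 fold changes of −0.68 ± 0.11 and −0.86 ± 0.12 (adjusted p = 5.76e-05 and 5.59e-06).

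Ndrg1, a stress-responsive member of the N-myc downstream regulated family, was at 23.002 and 25.0 CPM in WT, 55.5 and 55.2 in mCdx2-OE and 82.2 and 76.5 in rCdx2-OE. Its log2 fold change against WT was 1.21 ± 0.08 in mCdx2-OE and 1.73 ± 0.08 in rCdx2-OE. The value of mCdx2-OE minus rCdx2-OE, for which it was chosen, was −0.52 ± 0.08. For Slc2a1 the same difference was −0.26 ± 0.09, and for the other 8 genes it lay between 0.02 and 0.18, always with the higher level in mCdx2-OE. No test was made of these differences, and counts assigned to Cdx2 were higher in mCdx2-OE.

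**Figure D1:**
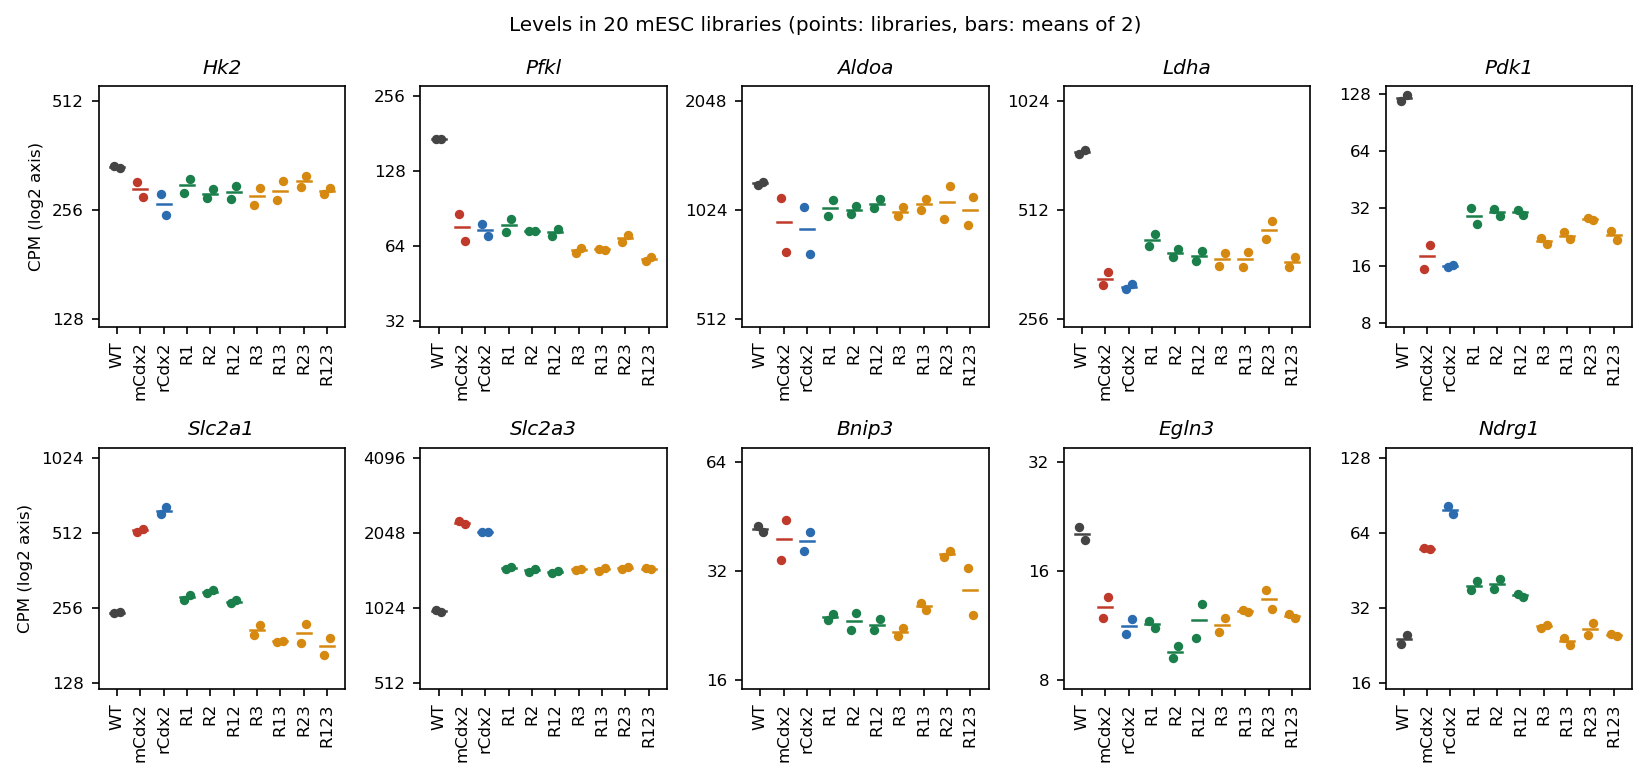
CPM (log2 axis) of the 10 genes in the 20 mESC libraries, 1 panel per gene, with points for libraries and bars for the mean of 2. WT is grey, mCdx2-OE red, rCdx2-OE blue, mutants without change 3 green and mutants with change 3 orange. Pdk1 falls from about 118 to 127 CPM in WT to between 15.3 and 32.3 in all induced libraries, and Slc2a1 and Ndrg1 separate the green from the orange points.

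The 7 mutants shared the fall of Pfkl and Pdk1 but not the rise of the transporters to the height seen with unmutated constructs. Ndrg1 was selected on the unmutated libraries, so its lower level in the mutants is a description only. The mutants and the unmutated constructs may also differ as sets of libraries, and the part of this was not tested. Against the same WT libraries, the mean of the 7 mutants called 2 of the 10 genes (background 26.2%), Pfkl at −1.35 ± 0.06 (adjusted p = 2.12e-11) and Pdk1 at −2.21 ± 0.07 (adjusted p = 2.48e-13). Ldha, at −0.91 ± 0.06 (adjusted p = 4.70e-10), Egln3, at −0.80 ± 0.08 (adjusted p = 1.04e-07), Bnip3, at −0.71 ± 0.09 (adjusted p = 2.07e-06), and Hk2, at −0.21 ± 0.07 (adjusted p = 0.00908), were lower by less than 2-fold. Slc2a3 was higher by 0.56 ± 0.05 (adjusted p = 2.62e-08) and Ndrg1 by 0.34 ± 0.06 (adjusted p = 0.000139). By the adjusted p alone 8 genes passed (background 73.9%), 2 higher (34.9%) and 6 lower (39.0%). Slc2a1 at −0.10 ± 0.06 (adjusted p = 0.171) and Aldoa at −0.22 ± 0.11 (adjusted p = 0.0884) missed the threshold.

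Over the 14 mutant libraries Slc2a3 was held in a narrow band of 1413 to 1498 CPM (median 1468), above both WT libraries and below all 4 mCdx2-OE and rCdx2-OE libraries. Pdk1 ranged from 20.9 to 32.3 CPM (median 27.1), and Ldha from 356 to 476 (median 391). Pdk1 thus lay above all mCdx2-OE and rCdx2-OE libraries, whose highest was 20.5, and far below WT. Hk2 ranged from 265 to 319 CPM (median 293), Aldoa from 930.5 to 1189.9 (median 1039.8) and Egln3 from 9.23 to 14.3 (median 11.9). The Hk2, Aldoa and Egln3 ranges overlapped those of the unmutated constructs.

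A contrast of the mutants with the mean of mCdx2-OE and rCdx2-OE was added after the data were seen. In it 7 of the 10 genes passed an adjusted p of 0.05 (background 64.0%): Slc2a1 at −1.33 ± 0.05 (adjusted p = 5.01e-13), Ndrg1 at −1.13 ± 0.04 (given as a description), Bnip3 at −0.60 ± 0.07 (adjusted p = 1.74e-06), Slc2a3 at −0.56 ± 0.03 (adjusted p = 3.38e-10) and Pfkl at −0.17 ± 0.06 (adjusted p = 0.0126) were lower in the mutants (5 genes, background 33.4%). Pdk1 at 0.64 ± 0.07 (adjusted p = 1.21e-06) and Ldha at 0.29 ± 0.05 (adjusted p = 4.88e-05) were higher (2 genes, background 30.6%). The Pfkl call was lost without mCdx2-OE replicate 1 (adjusted p = 0.283) or rCdx2-OE replicate 1 (adjusted p = 0.129), where Aldoa passed instead at 0.31 and 0.29. Replicate deviations of mCdx2-OE and rCdx2-OE did not follow those of the mutants (Pearson r −0.20 to −0.06 over 11898 genes, 14 pairs). R123 is changed at every residue of the DNA-binding domain that differs between mouse and rat Cdx2. Its mean Slc2a1 level was 180 CPM, against 524 in mCdx2-OE and 629 in rCdx2-OE. Slc2a3 was at 1473 CPM against 2254 and 2066, while Hk2, at 290, lay between 292 and 266. Any difference between these sets of libraries goes with the contrast, and its part was not tested. The trophoblast markers (6 of 7 tested) summed to 192 to 413 CPM in the mutants, under the sums of both unmutated constructs. The part of this in the contrast was not tested.

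**Figure D2:**
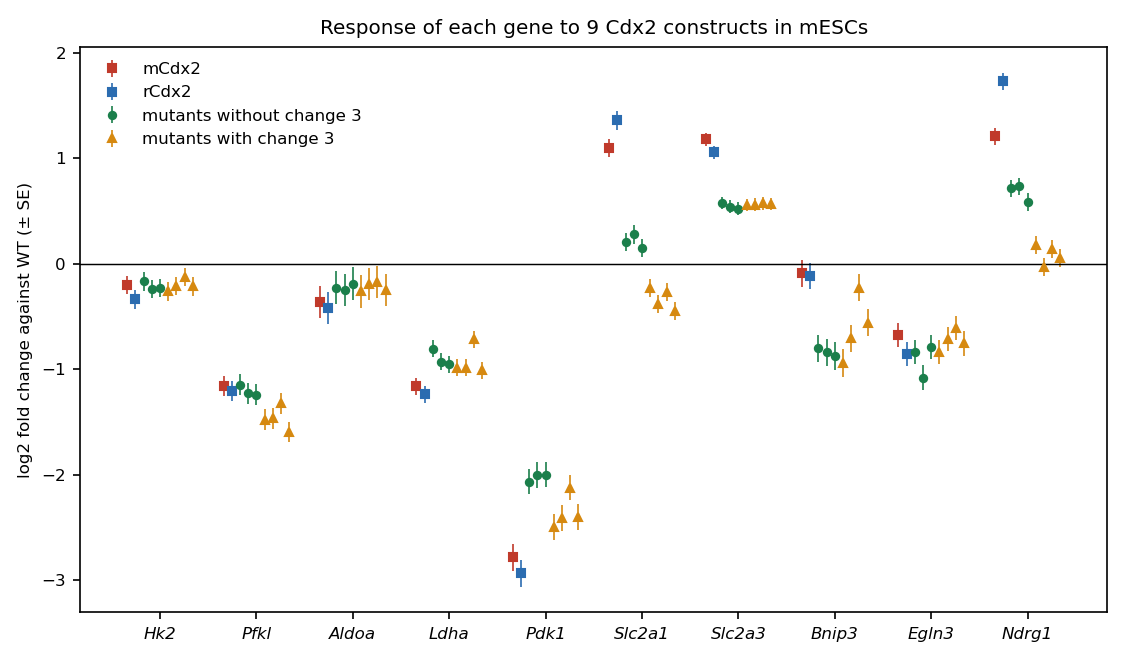
Log2 fold change against WT mESCs (± SE, 2 libraries per group, the same 2 WT libraries throughout) of the 10 genes for 9 Cdx2 constructs. Squares are mCdx2 (red) and rCdx2 (blue), green circles the mutants R1, R2 and R12, orange triangles R3, R13, R23 and R123. Pdk1 lies lowest for every construct, and the 9 values of Slc2a1 run from −0.45 to 1.36.

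The mutants also differed from each other. In the joint test 5 of the 10 genes passed (background 22.5%): Ndrg1 (adjusted p = 9.28e-06), Slc2a1 (2.35e-05), Bnip3 (0.00641), Pdk1 (0.0145) and Pfkl (0.0203). With the replicate number as a block, Ldha passed as well (adjusted p = 0.00410, background 24.2%). Pfkl was lost without R1 replicate 2 or either R123 library (adjusted p 0.0540 to 0.0737), and Bnip3 without R23 replicate 2 (adjusted p = 0.0537).

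An additive model of the 14 mutant libraries gave each change its own term. For change 3, 5 of the 10 genes passed (background 51.8% of 14699 genes), a share like that of all genes, with 4 lower (background 25.2%) and 1 higher (26.7%). Ndrg1 was lower by 0.62 ± 0.05 on the log2 scale (adjusted p = 1.33e-08) and Slc2a1 by 0.58 ± 0.05 (adjusted p = 9.44e-09) with change 3. Pdk1 at −0.32 ± 0.07 (adjusted p = 0.000586) and Pfkl at −0.28 ± 0.05 (adjusted p = 0.000174) were lower too, and Bnip3 at 0.28 ± 0.10 (adjusted p = 0.0235) was higher. The Bnip3 call was lost without replicate 1 (0.17, adjusted p = 0.139). Over 16 libraries that included rCdx2-OE, Bnip3 (0.04) and Pdk1 (−0.13) were both lost (adjusted p = 0.838 and 0.439). With the replicate block Egln3 passed at 0.19 ± 0.08 (adjusted p = 0.0349), making 6 genes against a background of 58.5%.

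For 2 of the 10 genes, Slc2a1 and Ndrg1, the libraries with and without change 3 did not overlap, a share like that of all 16000 genes (19.5%). Slc2a1 lay between 165 and 220.5 CPM in the 8 libraries with change 3 and between 269 and 302 in the 6 without it. Ndrg1 lay between 22.8 and 27.9 CPM with change 3, the range that holds both WT libraries, and between 35.3 and 41.6 without it. In matched pairs that differed by change 3 alone, Slc2a1 went from 283 to 188 CPM (R1 to R13), from 297 to 203 (R2 to R23) and from 272 to 179.5 (R12 to R123). Ndrg1 went in the same pairs from 39.3 to 23.5, from 39.8 to 26.4 and from 35.9 to 24.9 CPM. For the other 8 genes the 2 sets of libraries overlapped.

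Bnip3 singled out R23. Both R23 libraries, at 35.1 and 36.4 CPM, lay above every other mutant library. R123 replicate 1 was next at 32.7, while R123 replicate 2 was at 24.3. R3, with change 3 alone, was at 21.2 and 22.4 CPM. The lower value lay under the range of the mutants without change 3, which spanned 22.0 to 24.6, and the higher one within it.

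Changes 1 and 2 moved none of the 10 genes past the threshold with edgeR. For change 1, 4 of 14699 genes passed in all (background 0.0272%), and 2 of the 10 genes had an unadjusted p under 0.05, Slc2a1 at −0.15 ± 0.05 and Ndrg1 at −0.13 ± 0.05. With the replicate block Slc2a1 passed (−0.15 ± 0.03, adjusted p = 0.0146) among 66 genes (0.449%), and DESeq2 passed 17 genes, none of them among the 10. For change 2 no gene passed (background 0.00%), and 1 of the 10, Bnip3 at 0.24 ± 0.10, had an unadjusted p under 0.05. The block passed 228 genes (1.55%) and DESeq2 10 for change 2, again none of the 10.

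Mutants with change 3 carried less Cdx2 transcript: 37.2 to 94.4 CPM against 60.6 to 147 without it, and within each replicate set the 2 ranges were apart. A regression on log2 Cdx2 level passed only Pdk1 (slope 0.20 ± 0.06, adjusted p = 0.0365, background 18.1%, or 8.40% for positive and 9.72% for negative slopes). With the replicate number as a block, 6 genes passed (background 56.9%): Ndrg1 at 0.66 ± 0.07, Slc2a1 at 0.62 ± 0.04, Pdk1 at 0.31 ± 0.08 and Pfkl at 0.28 ± 0.05 with positive slopes, Bnip3 at −0.39 ± 0.09 and Egln3 at −0.23 ± 0.08 with negative ones. Within replicate sets, change 3 and the Cdx2 level cannot be told apart. Across sets, the replicate 2 libraries of R1, R2 and R12 had Cdx2 at 60.6 to 68.8 CPM and the replicate 1 libraries of R3, R13, R23 and R123 at 61.9 to 94.4, with Slc2a1 at 274 to 302 in the former and at 165 to 199.8 in the latter. This last comparison crosses replicate sets and was not tested.

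**Figure D3:**
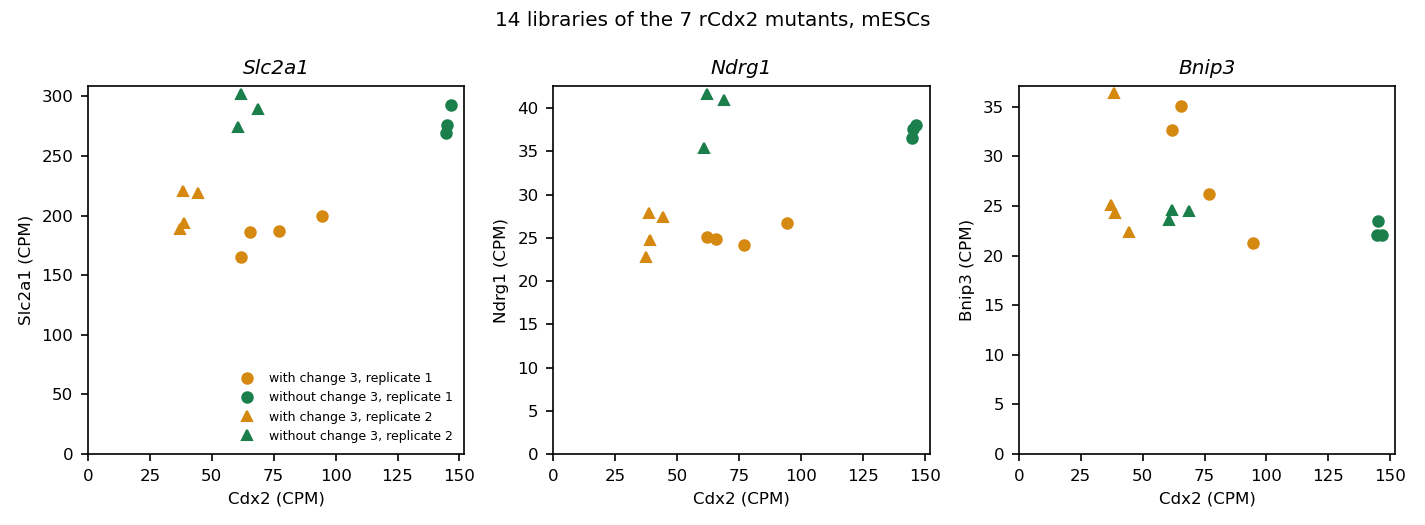
Slc2a1, Ndrg1 and Bnip3 (CPM, linear axes from 0) against Cdx2 (CPM) in the 14 mutant libraries. Orange marks the 8 libraries with change 3, green the 6 without it, circles replicate 1 and triangles replicate 2. For Slc2a1 and Ndrg1 the orange and green points share no level, at any Cdx2 level plotted.

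Across the 10 mESC groups the mean Ndrg1 level was ordered rCdx2-OE (79.3 CPM), mCdx2-OE (55.3), R2 (39.8), R1 (39.3), R12 (35.9), R3 (27.1), R23 (26.4), R123 (24.9), WT (24.0) and R13 (23.5). The libraries of R2 and R1 overlapped, as did those of neighbours from R3 to R23, R23 to R123, R123 to WT and WT to R13. Over the 14 mutant libraries, genes whose log2 CPM followed Ndrg1 closely among 11898 included Rarg, Larp1, Ncoa5 and Kmt2a, each with a Pearson r of 0.98. The points share depth, replicate set and Cdx2 level.

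In RMES cells the same transcripts were read on the mouse and the rat genome in the same libraries. The 2 overexpressing libraries, 1 per construct, were taken as replicates of Cdx2-OE, and the libraries labelled WT expressed Cdx2 as given above. On the mouse allele 5 of the 10 genes were called (background 44.5%) and on the rat allele 4 (background 42.5%), shares near those of all genes. On the mouse allele 3 were called higher (background 28.3%) and 2 lower (16.1%), and on the rat allele 2 higher (28.3%) and 2 lower (14.2%). By the adjusted p alone, 6 passed on the mouse allele (background 81.9%), 3 higher (42.8%) and 3 lower (39.0%), and 9 on the rat allele (82.5%), 3 higher (43.5%) and 6 lower (39.0%). Only Pdk1 and Ndrg1 were called on both alleles. The median log2 fold change of the 10 genes was −0.03 on the mouse allele, against 0.08 over all genes, and −0.44 on the rat allele, against 0.07. Both alleles come from the same 4 libraries.

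Pdk1 and Hk2 fell on both alleles. Pdk1 went from 90.4 and 93.2 CPM in WT to 43.0 in mCdx2-OE and 40.7 in rCdx2-OE on the mouse allele, and from 76.9 and 84.2 to 39.1 and 36.3 on the rat allele. The log2 fold changes were −1.13 ± 0.06 (adjusted p = 2.54e-09) and −1.10 ± 0.07 (adjusted p = 1.39e-09), and scaling by library totals alone took both under 2-fold (−0.71 and −0.89). Hk2, which had hardly moved in mESCs, went from 539.8 and 512 CPM to 189 and 192 on the mouse allele and from 795 and 786 to 401 and 399 on the rat allele. Its log2 fold changes were −1.47 ± 0.06 (adjusted p = 1.87e-10) and −0.98 ± 0.06 (adjusted p = 5.79e-10), the latter just short of 2-fold.

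Slc2a1 and Ndrg1 rose on both alleles. Slc2a1 went from 231 and 240.0 CPM to 636 and 652 on the mouse allele (1.45 ± 0.06, adjusted p = 1.59e-10) and from 478 and 492 to 799.7 and 822 on the rat allele (0.74 ± 0.06, adjusted p = 1.71e-08). Ndrg1 went from 13.6 and 12.7 CPM to 48.4 and 39.9 on the mouse allele (1.75 ± 0.10, adjusted p = 6.14e-09) and from 20.3 and 19.8 to 53.0 and 39.8 on the rat allele (1.21 ± 0.11, adjusted p = 7.82e-08). On both alleles Ndrg1 was higher in mCdx2-OE than in rCdx2-OE, the reverse of the order in mESCs, with 1 library each and no test. Without the mCdx2-OE library the rat allele value was 0.99, just under 2-fold.

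Slc2a3 did not rise in RMES cells. The mouse allele was at 1901 and 1893 CPM in WT and at 1826 and 1789 in the overexpressing libraries (−0.07 ± 0.05, adjusted p = 0.172). The rat allele was at 2.96 and 3.40 CPM in WT and 2.72 and 2.40 after induction, which rests on 81 and 102 counts in the WT libraries against 61638 and 67897 on the mouse allele. A change on the rat allele was therefore measured with little precision (−0.32 ± 0.21, adjusted p = 0.174).

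Ldha, Bnip3 and Egln3 behaved unlike on the 2 alleles. Ldha was level on the mouse allele, at 610.1 and 629.5 CPM in WT and 629 and 593 after induction (−0.02 ± 0.06, adjusted p = 0.731), and fell on the rat allele from 2439 and 2427 to 1106 and 967 (−1.23 ± 0.07, adjusted p = 2.87e-10). Bnip3 rose on the mouse allele from 24.0 and 26.5 CPM to 58.0 and 51.0 (1.11 ± 0.08, adjusted p = 6.53e-08) and fell on the rat allele from 84.4 and 81.4 to 58.6 and 53.5 (−0.57 ± 0.07, adjusted p = 1.18e-06). The alleles of Bnip3 thus moved in opposite directions. Egln3 stayed between 18.9 and 24.7 CPM on the mouse allele (0.08 ± 0.12, adjusted p = 0.517) and rose on the rat allele from 7.02 and 8.14 to 29.2 and 24.5 (1.82 ± 0.12, adjusted p = 1.64e-09).

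Pfkl and Aldoa changed less than 2-fold on either allele. Pfkl went from 201 and 204 CPM to 186 and 168 on the mouse allele (−0.19 ± 0.06, adjusted p = 0.0117) and from 374 in both WT libraries to 244 and 219 on the rat allele (−0.69 ± 0.07, adjusted p = 9.06e-08). Aldoa was at 1190.3 and 1155 CPM in WT and 1147 and 1128 after induction on the mouse allele (−0.04 ± 0.05, adjusted p = 0.423), and at 1722 and 1649 and then 1413 and 1359.7 on the rat allele (−0.28 ± 0.06, adjusted p = 0.000572). On the mouse allele the values of Pfkl, Aldoa, Ldha and Slc2a3 turned positive under scaling by library totals alone (0.23, 0.38, 0.40 and 0.35), a setting that shifted all 10 genes by 0.42 there and by 0.21 on the rat allele.

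**Figure D4:**
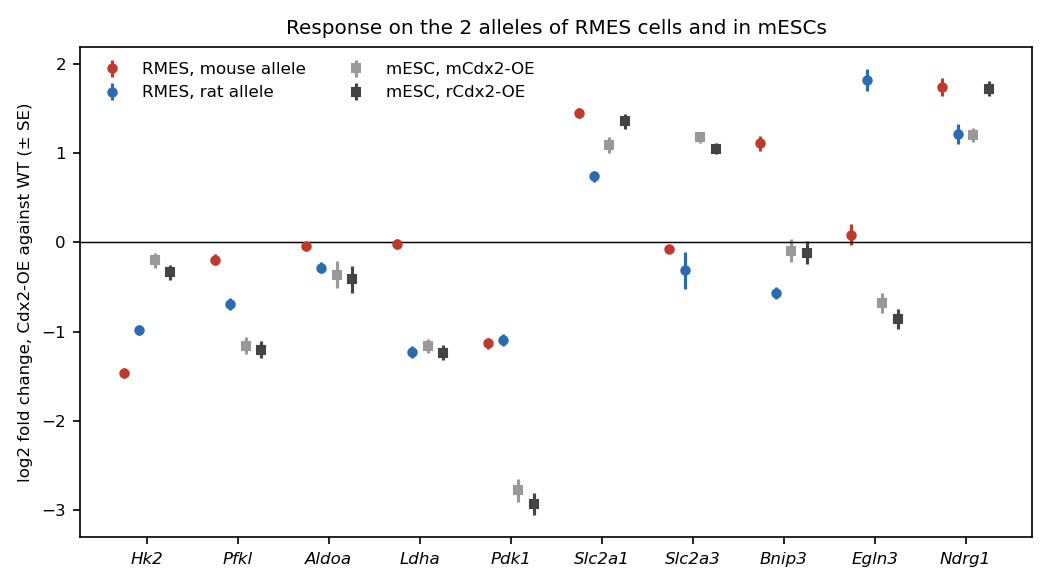
Log2 fold change of Cdx2-OE against the libraries labelled WT (± SE) for the 10 genes. Red and blue circles are the mouse and rat alleles of RMES cells (2 against 2 libraries), grey and black squares mCdx2-OE and rCdx2-OE in mESCs (2 against 2 libraries each). Ldha, Bnip3 and Egln3 lie farthest apart between the alleles, at −0.02 and −1.23, 1.11 and −0.57, and 0.08 and 1.82.

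Whether the alleles responded differently was tested with an allele-by-induction term, each library serving as its own block. The difference passed for 8 of the 10 genes (background 62.1%), and Pdk1 (−0.06 ± 0.06, adjusted p = 0.411) and Slc2a3 (0.22, adjusted p = 0.181) did not pass. The mouse value was the higher for 6 genes (background 30.3%) and the lower for 2 (31.8%). Mouse minus rat, the response differed by 1.65 ± 0.07 for Bnip3 (adjusted p = 4.10e-15), −1.77 ± 0.13 for Egln3 (adjusted p = 1.88e-11) and 1.19 ± 0.02 for Ldha (adjusted p = 4.92e-22). Slc2a1 (0.69 ± 0.03), Ndrg1 (0.52 ± 0.10), Pfkl (0.47 ± 0.05), Aldoa (0.21 ± 0.02) and Hk2 (−0.51 ± 0.03) differed by less. Aldoa, Ldha and Bnip3 lie on mouse chromosome 7, where the median allele difference over 1069 genes was 0.05. In the libraries labelled WT, all 10 genes differed between alleles (background 81.7%), 3 with the higher level on the mouse allele (41.5%) and 7 with the lower (40.2%). Sizes of these WT differences also depend on the transcript lengths in the 2 annotations, which differ, and the smallest, Pdk1 at 0.13 ± 0.04, was lost with DESeq2 and without either WT library. Marker sums differed between WT and induced libraries. The 6 pluripotency markers summed to 4435 to 4468 CPM in WT and 1805 to 1848 after induction on the mouse allele, and to 3387 to 3433 and then 1082 to 1177 on the rat allele (5 of 6 tested). The 7 trophoblast markers, Cdx2 included, went from 292 to 302 CPM in WT to 999 to 1812 on the mouse allele (6 of 7 tested) and from 742 to 774 to 1015 to 1950.5 on the rat allele. The fibroblast sum was 21.5 to 26.5 CPM in WT and 7.82 to 10.7 after induction on the mouse allele (4 of 5 tested), and 19.4 to 24.8 and then 23.5 to 29.9 on the rat allele (3 of 5 tested), where Col1a1 made up 20.6 of the 22.1 CPM in WT. By the adjusted p alone, 2 fibroblast markers passed lower and 1 higher on each allele. The part of these markers in the results on RMES cells was not tested.

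The response on the mouse allele of RMES cells was compared with the mean response to both constructs in mESCs, which share no library. The difference passed for 7 of the 10 genes (background 52.6%), 5 higher in RMES cells (27.5%) and 2 lower (25.1%). The response of Pdk1 was higher in RMES cells by 1.69 ± 0.14 (adjusted p = 7.69e-06), that of Bnip3 by 1.18 ± 0.16 (adjusted p = 0.000175), that of Ldha by 1.14 ± 0.09 (adjusted p = 4.91e-06), that of Pfkl by 0.95 ± 0.15 (adjusted p = 0.000466) and that of Egln3 by 0.82 ± 0.18 (adjusted p = 0.00361). For Hk2 (−1.24 ± 0.11, adjusted p = 1.20e-05) and Slc2a3 (−1.22 ± 0.08, adjusted p = 1.96e-06) it was lower. Slc2a1 (0.19 ± 0.08, adjusted p = 0.0811) and Aldoa (0.31 ± 0.22, adjusted p = 0.263) missed the threshold. The value of Ndrg1, 0.24 ± 0.14, is a description, since the mESC libraries in it are those on which the gene was selected. The WT libraries of the 2 cell types started from different Cdx2 levels, and the part of this in the difference was not tested.

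Other genes of the same pathways give the setting. Of 17 glycolytic enzymes, Hk2, Pfkl, Aldoa and Ldha included, 5 were called in mCdx2-OE. All 5 were lower, Pfkl and Ldha among them (15.0% of all genes were called lower). At an adjusted p under 0.05 in edgeR's test, 12 were lower and 1 higher (35.8% and 34.0% of all genes were). The median log2 fold change was −0.65 against −0.03 over all genes. Pgam1, phosphoglycerate mutase, was lowest at −1.70 ± 0.12, and Eno2, the neuronal enolase, highest at 0.89 ± 0.17. In rCdx2-OE 5 of the 17 were called lower and 1 higher (15.4% and 19.0% of all genes were), with a median of −0.78 against −0.04. Over the mean of the mutants 2 were called, both lower (13.9% of all genes were), with a median of −0.30 against −0.03. On the mouse allele of RMES cells 4 were called higher and 5 lower of 17 (28.3% and 16.1% of all genes were), and on the rat allele 1 higher and 7 lower of 14 tested (28.3% and 14.2%).

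Among 4 transporters of glucose and lactate, the lactate exporter Slc16a3 went against Slc2a1 and Slc2a3 in mESCs, at −1.37 ± 0.16 in mCdx2-OE and −1.33 ± 0.16 in rCdx2-OE. Of 10 genes that govern pyruvate entry into mitochondria, only Pdk1 was called in mCdx2-OE or rCdx2-OE (33.4% and 34.5% of all genes were). By the adjusted p alone 7 passed in each, beside 69.7% and 70.6% of all genes. The related kinase Pdk4 was highest in mCdx2-OE at 0.88 ± 0.18. Of 8 oxygen-sensing genes none was called with either unmutated construct, although 6 and 5 passed the adjusted p alone, beside 69.7% and 70.6% of all genes. Hif1a transcript was higher by 0.86 ± 0.17 in mCdx2-OE and by 0.82 ± 0.17 in rCdx2-OE, under 2-fold.

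Of 23 hypoxia targets, 7 were called in mCdx2-OE (33.4% of all genes), Ndrg1 among them as a description only. Of the 7, 5 were higher and 2 lower, and over the list 10 were higher and 8 lower at an adjusted p under 0.05. The list therefore held no common direction, and its median was 0.03 against −0.03 over all genes. Its extremes were Vegfa, the vascular growth factor, at 2.46 ± 0.07 and Pdk1 at −2.78 ± 0.12. In RMES cells the called hypoxia targets were 5 higher and 3 lower on the mouse allele and 6 higher and 3 lower on the rat allele, out of 23 and 22 tested, against 44.5% and 42.5% of all genes called in either direction. P4ha2, a collagen prolyl hydroxylase, was highest on both, at 3.12 ± 0.15 and 5.04 ± 0.18. Of the 4 Ndrg family genes, Ndrg2 fell in mESCs (−1.62 ± 0.16 in mCdx2-OE) where Ndrg1 was higher, while 3 were called higher on the mouse allele and all 4 on the rat allele (28.3% of all genes on each).

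ATAC-seq and ChIP-seq describe the chromatin around the 10 genes, with 1 library per group and no test. The ChIP-seq columns were matched to mCdx2-OE and rCdx2-OE by the first letter of their names, which is an inference, so reads given per construct rest on it. A locus here is the gene body with 20 kb on each side. Cdx2 ChIP peaks of mESCs lay in the loci of 9 of the 10 genes, all but Pfkl, 24 peaks in all, while 73.3% of 21728 genes had one. In RMES cells 8 of the 10 loci held 15 mouse-allele peaks (65.0% of genes had one). Of the 10 promoters 2, those of Aldoa and Bnip3, had a peak within 1 kb of the gene start. The share over all genes was not computed for this window.

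Of 109 ATAC peaks with at least 40 scaled reads in these loci, 11 were more than 2-fold higher in mCdx2-OE than in WT and 13 more than 2-fold lower, against 13.7% and 20.5% of all counted peaks. Of the 11 that opened 5 overlapped a Cdx2 peak, and of the 13 that closed none did, while 58.3% of all opened and 2.97% of all closed peaks overlapped one. At 8 of the 10 promoters the log2 ratio lay between −0.27 and 0.56, beside a median of 0.33 over all counted promoters. Hk2 was lower at −0.63, and the Ldha value of −1.99 rests on 26 and 8 counts at an upstream gene start, under the minimum, while the peak over the RefSeq start of Ldha was level at 0.18.

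Peaks that opened and closed were spread unevenly over the loci. Slc2a1 had 4 that opened and none that closed, Aldoa 3 that closed, and Ldha and Pfkl 1 that closed each, with none that opened at these 3 loci. Slc2a3 had 1 that opened and 3 that closed, and Hk2 had 2 of each. The closed peaks at 92.9 and 94.4 kb past the Slc2a3 start lay beyond the 3′ end of the gene. They stood near a Cdx2 peak at 89.7 kb that lies in the neighbouring gene Nanog. Whether these closed peaks lie in Nanog as well was not looked up, so they cannot be assigned to Slc2a3. Bnip3 had 2 that opened and none that closed, Ndrg1 had 1 that closed, and Pdk1 and Egln3 had 1 of each. Hk2, which hardly moved in mESCs, had an intronic peak 5.52 kb past its start that rose from 48 to 220 counts (1.74) and held 2 Cdx2 peaks with 86 reads in mCdx2-OE and 83 in rCdx2-OE. Slc2a1 had an intronic peak that rose from 11 to 66 counts (2.06), with 51 and 45 Cdx2 reads. Pdk1, which fell most, gained a peak at −20.5 kb from its start, inside the neighbouring gene Itga6 (23 to 69 counts, 1.12, with 61 and 64 Cdx2 reads), and lost one at −6.03 kb that had no Cdx2 peak (139 to 46 counts, −2.01). Bnip3 had peaks that opened at −4.62 kb (12 to 72 counts, 2.07, no Cdx2 peak) and at −10.0 kb (43 to 149 counts, 1.34, with 49 and 53 Cdx2 reads). Egln3, which fell, had an intronic peak that opened from 12 to 42 counts (1.31) with 35 and 20 Cdx2 reads. The Ndrg1 locus had no peak that opened, 1 that closed 58.4 kb past the start (30 to 11 counts, −1.78), and 1 Cdx2 peak 41.9 kb past the start with 33 reads in mCdx2-OE and 40 in rCdx2-OE, in no ATAC peak.

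**Figure D5:**
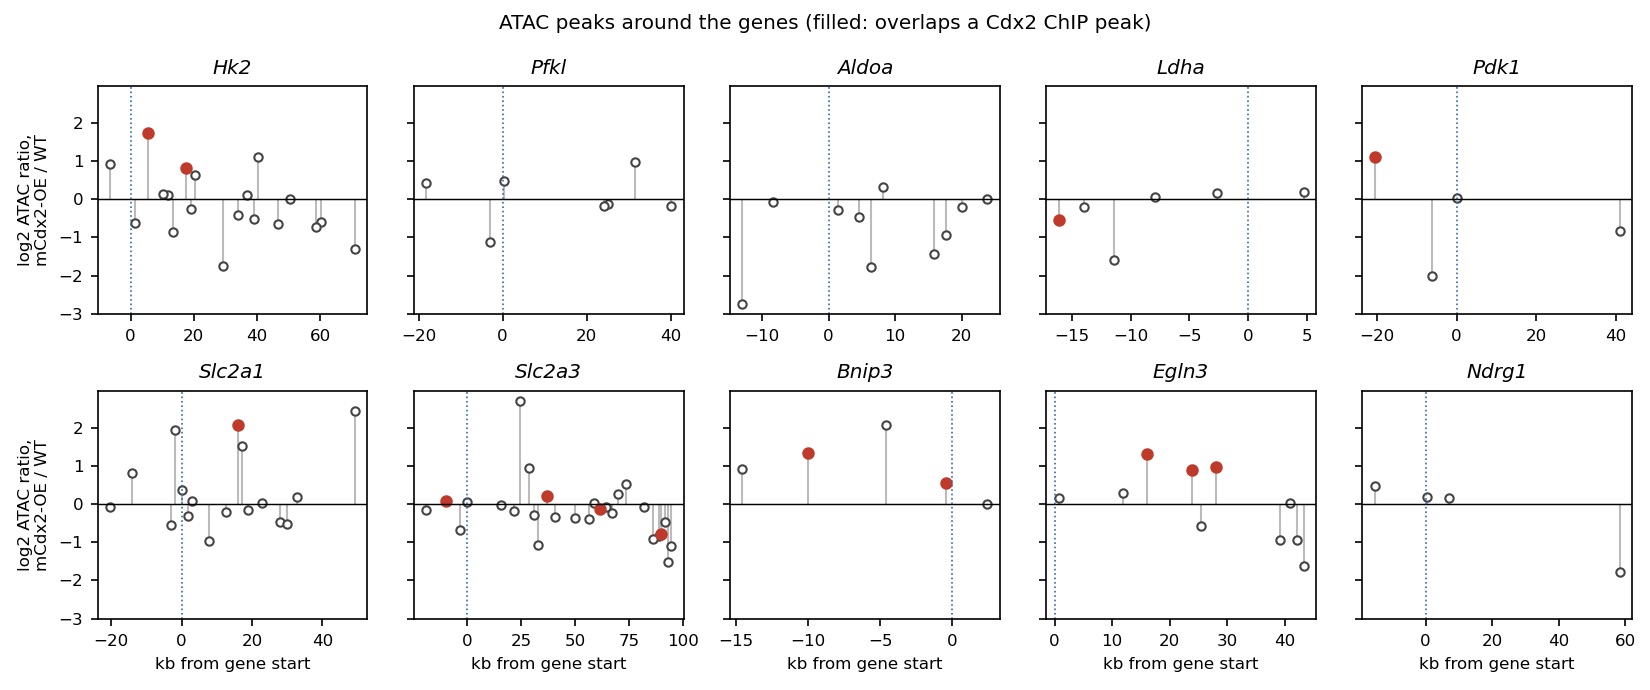
Log2 ratio of mCdx2-OE to WT ATAC-seq counts (1 library each, scaled to equal totals) against distance from the gene start in kb, for counted peaks in the loci of the 10 genes. Each point is a peak, filled red where it overlaps a Cdx2 ChIP peak of mESCs, and the dotted line is the gene start. The red points of Hk2, Slc2a1, Pdk1, Bnip3 and Egln3 include the 5 peaks that opened more than 2-fold.

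The middle 200 bases of 4 of these Cdx2 peaks are shown, 3 that opened and the one of Ndrg1. Capitals mark TTTTAT or its reverse complement, the letters with which Cdx2 binding sites are usually written. Such a match was present in 15 of the 24 peaks of these loci and in 61.4% of all 91665 Cdx2 peaks of mESCs. The windows, on the plus strand of mm10 and read from GRCm38.p6, are chr4:119124595-119124794 (Slc2a1, intron), chr6:82768181-82768380 (Hk2, intron), chr12:54188053-54188252 (Egln3, intron) and chr15:66927681-66927880 (past the 3′ end of Ndrg1, in no annotated gene).
Slc2a1: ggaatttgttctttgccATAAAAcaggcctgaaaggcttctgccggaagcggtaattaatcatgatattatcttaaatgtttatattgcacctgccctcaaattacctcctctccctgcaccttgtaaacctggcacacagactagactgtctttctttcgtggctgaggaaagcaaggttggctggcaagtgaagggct
Hk2: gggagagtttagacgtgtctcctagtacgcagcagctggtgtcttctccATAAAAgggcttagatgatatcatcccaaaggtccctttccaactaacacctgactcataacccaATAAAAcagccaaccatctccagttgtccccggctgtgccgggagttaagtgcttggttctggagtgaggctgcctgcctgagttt
Egln3: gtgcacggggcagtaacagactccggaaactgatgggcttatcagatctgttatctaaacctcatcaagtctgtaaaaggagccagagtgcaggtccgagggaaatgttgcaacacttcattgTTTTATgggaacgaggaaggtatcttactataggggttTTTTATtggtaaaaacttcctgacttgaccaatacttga
Ndrg1: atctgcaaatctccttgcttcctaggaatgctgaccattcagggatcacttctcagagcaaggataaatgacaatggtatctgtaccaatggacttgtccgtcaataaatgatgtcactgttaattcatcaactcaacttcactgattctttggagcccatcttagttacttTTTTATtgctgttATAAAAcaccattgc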

How the data were processed

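Deposited values were raw counts of read pairs per gene, which the authors made by aligning reads with STAR 2.7.0d to mm10 or rn6 and counting them by strand with featureCounts, and raw counts per peak from merged reads. RMES reads had been assigned to 1 genome by edit distance. For replicate 2 of the mESC tables, incomplete and chimeric read pairs had been left out of the counting. For replicate 1 this is not given in the sources used here, nor is the rat annotation release. The 10 genes and all gene lists were chosen with earlier results of these data known. Named genes were the 10 members, the largest and smallest fold change of each list, and the 5 genes closest to Ndrg1 by Pearson r of log2 CPM over the mutant libraries (mean of at least 50 counts), 1 of which is not reported here. Counts were tested with edgeR 4.0.16 (quasi-likelihood, TMM, filterByExpr, Benjamini-Hochberg over all genes tested) in R 4.3.3, with all 20 mESC libraries, the 14 mutant libraries or the 4 RMES libraries in 1 model, and with DESeq2 1.42.0 as an alternative. The scripts were tested on simulated data. SE was the log2 fold change divided by the root of F, a value of the model and not a direct measure of the spread between libraries. For Slc2a3 in the allele interaction it was 0.0468, which did not match the unadjusted p of 0.131 from edgeR's test. It was therefore not given with that result. Same-numbered mutant libraries deviated together (Pearson r 0.32 to 0.52 over 21 pairs of groups, 11898 genes), so replicate numbers pair the mutants. Those of mCdx2-OE and rCdx2-OE were paired in the same way (Pearson r 0.76). This comes from the data and not from the labels. ATAC-seq counts were scaled to the mean total, with 1 added before logarithms. Replicate libraries differed beyond counting noise (chi-square per degree of freedom 2.40 to 40.5). The values rest on 12698443 to 94686029 counts per library. ChIP-seq peaks on rn6 were not used here.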

Additional observations from a re-analysis of the deposited data

Results flagged for a closer look

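A response to Cdx2 that differed between the alleles of RMES cells, by edgeR's test of the interaction, was found for 8 genes. Mouse minus rat on the log2 scale, the difference was 1.65 for Bnip3, 1.19 for Ldha, 0.69 for Slc2a1, 0.52 for Ndrg1, 0.47 for Pfkl, 0.21 for Aldoa, −0.51 for Hk2 and −1.77 for Egln3, with 62.1% of all genes passing the same test. All 8 passed without any 1 of the 4 libraries as well.

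A response on the mouse allele of RMES cells that differed from that of mESCs, again by a test of the difference itself, was found for 7 genes. RMES minus mESC, it was 1.69 for Pdk1, 1.18 for Bnip3, 1.14 for Ldha, 0.95 for Pfkl, 0.82 for Egln3, −1.22 for Slc2a3 and −1.24 for Hk2, with 52.6% of all genes passing. The part of the Cdx2 level in the RMES libraries labelled WT in these differences was not tested.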

How the results depend on the processing

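Of 1440 values recomputed for the 10 genes under other settings, 1369 kept their direction and side of the threshold, 17 lost a call, 24 gained one and 30 changed sign. The sources of these changes were not tested. RLE size factors and the removal of the low-count filter changed the sign of no value. Library totals alone reversed Bnip3 in mCdx2-OE (0.0903) and rCdx2-OE (0.0704), Hk2 in mutants against unmutated constructs (−0.0342) and, on the RMES mouse allele, Slc2a3 (0.35), Ldha (0.40), Aldoa (0.38) and Pfkl (0.23).

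The replicate block reversed Bnip3 for change 1 (−0.0016) and the Cdx2 slopes of Ldha (0.0185) and Aldoa (0.0143). It moved the members called from 0 to 1 for change 1 and from 1 to 6 for the Cdx2 slope, and all genes called to 66 for change 1, 228 for change 2 and 8363 for the slope. In the comparisons against WT, which are not paired (r −0.26 to −0.04), it changed no count of members. DESeq2 called 17 genes for change 1, 10 for change 2 and 3 members for the slope, and no filter gave 7 genes for change 1. With rCdx2-OE added (16 libraries), change 1 called 0 genes and change 3 called 3 members, and the sign turned for Pdk1 (0.16), Ldha (0.0267) and Bnip3 (−0.2514) for change 1, Bnip3 (−0.0011) for change 2 and Slc2a3 (−0.12) and Ldha (0.0526) for change 3.

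Leaving out libraries moved values across 0, lowest to highest, for Bnip3 in mCdx2-OE (−0.2854 to 0.0797), Egln3 in mutants against unmutated constructs (−0.075 to 0.0195), Bnip3 (−0.123 to 0.1249) and Slc2a3 (−0.0048 to 0.0027) for change 1, Hk2 (−0.0141 to 0.0442), Ldha (−0.0016 to 0.0131) and Aldoa (−0.0306 to 0.0561) for change 2, Aldoa for change 3 (−0.0556 to 0.0646), and Ldha (−0.0771 to 0.0291) and Egln3 (−0.1336 to 0.2714) on the RMES mouse allele. The slope of Ldha was 0.0106 and 0.023 without replicate 1 or 2, and that of Aldoa ranged from −0.0855 to 0.0597. Members called ranged from 4 to 5 for the joint test and change 3, 4 to 6 for the slope, 3 to 4 on the rat allele, 9 to 10 for WT alleles and 7 to 8 for RMES against mESCs, where the added gene was Ndrg1 and is a description. All genes called ranged from 5 to 18 for change 1, 4 to 10 for change 2 and 6156 to 7103 for the slope. Loci of 50 kb on each side held 42 opened or closed ATAC peaks against 24. Of the 10 genes, rat Slc2a3 had the lowest count in a library (81, and 102 in the other WT library), which limits the precision of its value.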
